A study of Mus musculus with 4 samples.

Results

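In single testis cells, 7 genes linked to pluripotency or of the MYC family were followed: Utf1, Sall4, Pou5f1, Lin28a, Myc, Mycn and Mycl. All 7 were found by their gene symbol among the 26041 genes of the count tables. They were chosen by name with earlier results of the same tables known, namely their counts per genotype and per cell, so their differences between genotypes, and between cells with and without Lin28a, are given as descriptions without a test. The cells were tdTOMATO-positive cells sorted from testes of 4 wk old mice that carried an iCreERt2 and tdTomato cassette knocked into the Eomes locus. Mice were either Plzf +/+ or Plzf lu/lu, the luxoid mutation of Zbtb16, the gene that encodes PLZF. The knockin was present in both groups, so none of the single-cell libraries lacked it, and sorted cells were defined by reporter fluorescence and not by EOMES protein. Cells lay on 4 plates, which gave 3 libraries of Plzf +/+ cells, from plates 1, 2 and 4, and 2 of Plzf lu/lu cells, from plates 3 and 4. The 5 libraries are the replicates below. The labels do not name the animals behind a plate, so the spread between libraries may be technical, and apart from plate 4 genotype and plate cannot be told apart.

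UTF1 is a chromatin-associated protein of embryonic stem cells that is retained in undifferentiated spermatogonia. SALL4 is a zinc-finger transcription factor of stem cells and spermatogonia and is known to bind PLZF. POU5F1 (OCT4) is the POU-domain factor at the centre of the pluripotency network. LIN28A binds RNA and blocks maturation of let-7 microRNAs, and in the testis its protein marks undifferentiated spermatogonia. MYC, MYCN and MYCL pair with MAX at E-box DNA and drive growth and ribosome synthesis. MYCN is linked to the response of cultured spermatogonial stem cells to GDNF, the growth factor that signals through GFRA1 and RET.

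The tables held 1249 cells, 897 Plzf +/+ and 352 Plzf lu/lu, with 277 to 317 cells per library apart from the Plzf lu/lu library of plate 4, which held 38. Libraries summed to between 254514 and 2608702 unique molecular identifiers (UMIs, each counting 1 captured RNA molecule). A level is given as CPM, the UMIs of a gene per 1000000 UMIs of a library, and since the 3′ protocol gives 1 tag per molecule, no length correction applies. The floor was set at 3 UMIs per library, which correspond to between 1.15 and 11.8 CPM. Of 376 cell barcodes, 358 occurred in 2 or more libraries and 0 occurred more than once on a plate. On plate 4, 5 Plzf +/+ cells lay in wells that the labels assign to Plzf lu/lu. The germ cell gene Dazl had a UMI in between 86.8% and 95.6% of cells. Zbtb16 was counted 164, 126 and 141 times in Plzf +/+ and 46 and 3 times in Plzf lu/lu, a log2 fold change of -1.97 ± 0.30 (SE, adjusted p = 0.0319, edgeR quasi-likelihood test). Sertoli cell markers moved with genotype: the summed level of 15 of them was 524 to 612 CPM in Plzf +/+ and 908 to 1358 in Plzf lu/lu, with 7 of 13 tested markers higher. A cluster of 30 Sertoli-like cells held 21 Plzf lu/lu cells. Spermatid-like cells made up 6.94%, 21.1% and 20.6% of the Plzf +/+ libraries and 10.8% and 18.4% of the Plzf lu/lu libraries, so the genotypes overlapped.

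The order of mean levels in Plzf +/+ libraries was Sall4, Lin28a, Mycn, Utf1, Myc, Mycl and Pou5f1. Sall4 (154 ± 0.153 CPM, SD, n = 3), Lin28a (48.2 ± 15.8) and Mycn (19.6 ± 2.86) lay apart from each other, with no overlap between libraries. Utf1 (3.49 ± 1.14), Myc (2.62 ± 0.332) and Mycl (2.18 ± 0.430) overlapped in their ranges and lay close to the floor. Pou5f1 was at 1.11 ± 0.597, with between 1 and 3 UMIs in each library. In Plzf lu/lu libraries the order was Sall4 (96.2 ± 24.9, n = 2), Lin28a (56.8 ± 14.2), Mycn (53.2 ± 14.2), Utf1 (21.5 ± 2.64), Mycl (3.31 ± 0.881), Myc (3.11 ± 1.15) and Pou5f1 (1.15 ± 1.63). There, Lin28a and Mycn overlapped and neighbours at the low end did not differ beyond their spread.

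**Figure D1:**
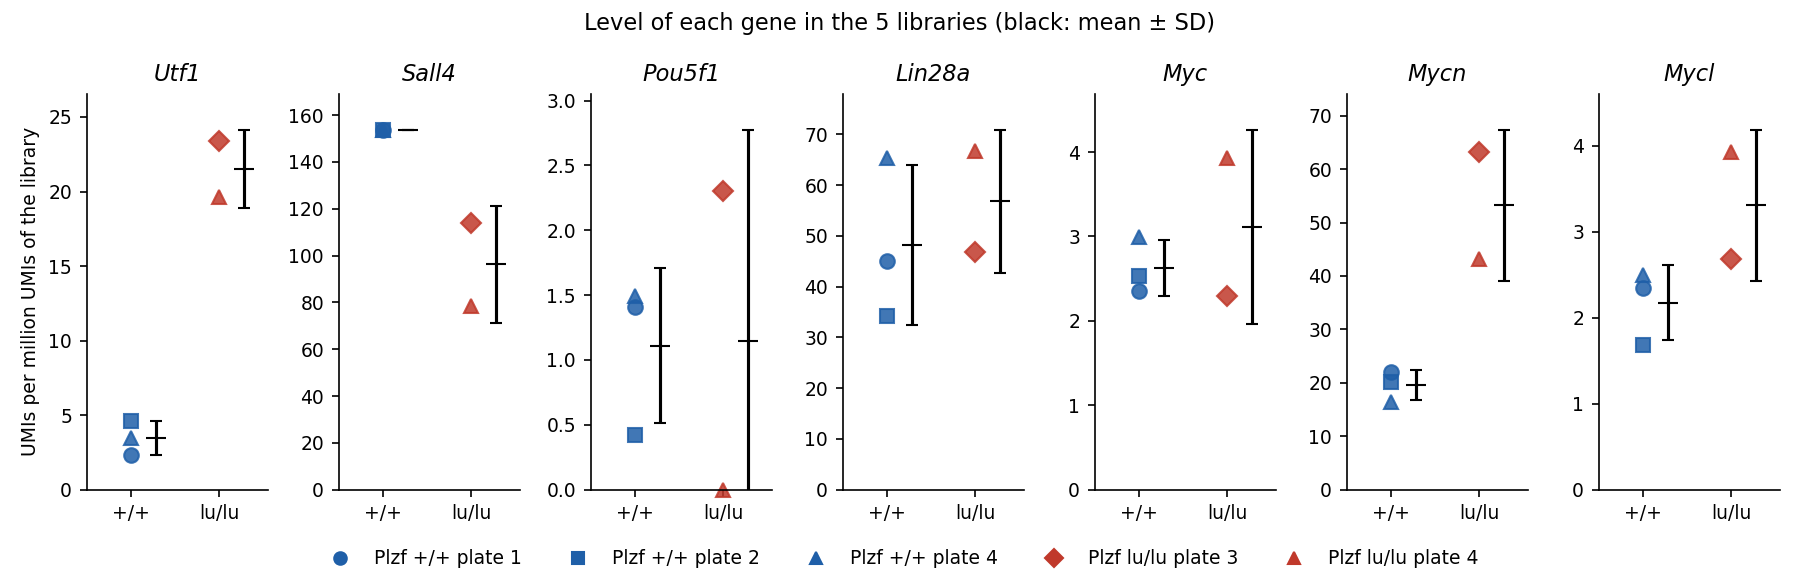
CPM (linear axes that start at 0 and differ between panels) for each gene in 3 Plzf +/+ and 2 Plzf lu/lu libraries; each point is a library and the black bars give mean ± SD. For Utf1 and Mycn every Plzf lu/lu point lay above all Plzf +/+ points, for Sall4 below, and Lin28a overlapped.

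On plates 1, 2 and 4 the Plzf +/+ cells gave 5, 11 and 7 UMIs of Utf1, while 61 and 5 came from the Plzf lu/lu cells of plates 3 and 4. These counts correspond to 2.35, 4.64 and 3.49 CPM against 23.4 and 19.6. Both Plzf lu/lu libraries were above all Plzf +/+ libraries, although the plate 4 level rested on 5 UMIs. The log2 fold change was 2.69 ± 0.42 (SE). Utf1 passed the filter on low counts only through its Plzf lu/lu level.

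Mycn had 47, 48 and 33 UMIs in Plzf +/+ and 165 and 11 in Plzf lu/lu, which are 22.1, 20.2 and 16.5 CPM against 63.2 and 43.2. The groups did not overlap, and the log2 fold change was 1.57 ± 0.26. The other MYC genes were scarce. Myc had 5, 6 and 6 UMIs against 6 and 1, so that its summed level in Plzf lu/lu was 0.936 times that in Plzf +/+ (95% exact interval 0.328 to 2.37, counting error only). Mycl had 5, 4 and 5 UMIs against 7 and 1, a ratio of 1.30 (0.472 to 3.32); its levels did not overlap between groups, but that of Plzf lu/lu plate 4 rested on 1 UMI. For neither gene was a genotype difference detectable at this depth.

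Sall4 was at 153.6, 153.8 and 153.6 CPM in Plzf +/+ (327, 365 and 308 UMIs), and lower in Plzf lu/lu, at 113.9 and 78.6 (297 and 20 UMIs). With the normalisation of the edgeR fit the Plzf +/+ values were 153.0, 149.9 and 157.9, so their closeness depended on the scaling. The log2 fold change of Sall4 was -0.55 ± 0.18. Lin28a was at 45.1, 34.1 and 65.3 CPM in Plzf +/+ (96, 81 and 131 UMIs) and at 46.8 and 66.8 in Plzf lu/lu (122 and 17 UMIs). The ranges overlapped, and the log2 fold change of 0.19 ± 0.34 turned to -0.23 ± 0.42 after each cell was thinned to 2000 UMIs. Pou5f1 had 3, 1 and 3 UMIs against 6 and 0, and since 5 RefSeq genes are named as copies of it, its reads may be divided between copies.

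Of the 7 genes 4 passed the filter on low counts. Over all genes, 112 of 13728 tested were called between genotypes at an adjusted p of 0.05 (0.816%, 80 higher and 32 lower in Plzf lu/lu), and no calls of the 7 genes are counted, since their counts per genotype led to their choice. The number of genes called depended on the libraries: leaving out Plzf +/+ plate 2, Plzf +/+ plate 4 or Plzf lu/lu plate 3 left 1 gene called, leaving out Plzf lu/lu plate 4 left 6, and leaving out Plzf +/+ plate 1 gave 1387. Of the 4 tested members, Utf1, Mycn and Sall4 had levels that did not overlap between groups, which was known when they were chosen. Of all genes tested, 34.5% did not overlap. Within plate 4, which held both genotypes, the ratio of Plzf lu/lu to Plzf +/+ was 5.63 for Utf1 (1.41 to 20.6, counting error only), 2.63 for Mycn (1.20 to 5.33), 0.512 for Sall4 (0.308 to 0.804) and 1.02 for Lin28a (0.578 to 1.70). The ratios of the summed libraries, which include those of plate 4, were 6.52, 3.12, 0.720 and 1.03 respectively. With Sertoli-like and spermatid-like cells left out, the log2 fold changes were 2.94 ± 0.40 for Utf1, 1.65 ± 0.23 for Mycn and -0.49 ± 0.16 for Sall4.

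The 2 genes that were higher in Plzf lu/lu have promoter entries in RefSeq (build GRCm38.p6). The 250 bases before each start site are shown because both genes lay higher in Plzf lu/lu. Capitals mark GC boxes (GGGCGG or CCGCCC), sites of the kind bound by SP1-family factors.

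Utf1, chr7:139943606-139943855, plus strand: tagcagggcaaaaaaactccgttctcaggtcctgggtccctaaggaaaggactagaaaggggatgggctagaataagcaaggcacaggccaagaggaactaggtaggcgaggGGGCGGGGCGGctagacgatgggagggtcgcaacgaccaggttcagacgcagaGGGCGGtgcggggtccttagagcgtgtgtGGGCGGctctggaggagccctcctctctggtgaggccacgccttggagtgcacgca
Mycn, chr12:12941837-12942086, minus strand: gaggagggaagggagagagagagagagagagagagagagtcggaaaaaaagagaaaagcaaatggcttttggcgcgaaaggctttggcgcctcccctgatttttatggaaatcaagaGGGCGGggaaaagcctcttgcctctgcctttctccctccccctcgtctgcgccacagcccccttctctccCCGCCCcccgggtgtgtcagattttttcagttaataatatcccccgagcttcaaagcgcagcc

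Both strands were searched for the E-box CACGTG, the octamer ATGCAAAT, the GC box and the CCAAT box, each counted whether or not matches overlapped. Of all 32851 promoters of this length, 6.02% held the E-box, 1.60% the octamer, 32.7% a GC box and 33.8% a CCAAT box. The Utf1 window held 4 GC boxes, of which a pair overlap by 1 base, and the Mycn window held 2. Neither window held the letters of the E-box, the octamer or the CCAAT box. Their GC content was 61.6% and 54.8%, against a median of 52.4% over all promoters. Of the 7 genes 5 had an entry. The windows of Lin28a and Mycl, at 61.2% and 63.6% GC, held 0 and 1 GC boxes and no match to the other motifs. Pou5f1 had 2 windows, at 62.0% and 45.6% GC, which held 1 and 0 GC boxes and 1 CCAAT box each. Utf1 itself lies at chr7:139943856-139945112 and Mycn at chr12:12936093-12941836.

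Cells were next counted by whether they held a UMI of each gene. Mycn was detected in 11.7%, 11.2% and 9.03% of Plzf +/+ cells on plates 1, 2 and 4, and in 32.5% and 23.7% of Plzf lu/lu cells on plates 3 and 4. Pooled, this was 96 of 897 cells (10.7%, 95% exact interval 8.76 to 12.9) against 111 of 352 (31.5%, 26.7 to 36.7). Utf1 was detected in 1.58%, 2.97% and 2.53% of Plzf +/+ cells and in 13.1% and 13.2% of Plzf lu/lu cells. Up to 7 UMIs of each gene were seen in a Plzf lu/lu cell, while the highest in Plzf +/+ was 2 for Utf1 and 4 for Mycn.

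Sall4 was the most widely detected gene, in 57.2% of Plzf +/+ and 45.5% of Plzf lu/lu cells. Lin28a was found in 18.5% to 29.6% of cells of a Plzf +/+ library and in 24.2% and 31.6% in Plzf lu/lu. Myc (1.67% and 1.42%), Mycl (1.56% and 2.27%) and Pou5f1 (0.780% and 1.70%) were rare in both genotypes, and of these 3 genes Myc alone had a cell with more than 1 UMI. Median depth was 5908 UMIs per cell in Plzf +/+ and 6271.5 in Plzf lu/lu. In the 30 Sertoli-like cells, a somatic type in which Utf1, Sall4, Lin28a and Pou5f1 should be low, the median was 3168 UMIs, and 1 cell held Utf1 (3.33%), 3 held Sall4 (10.0%), 3 held Mycn (10.0%) and 0 held Lin28a, Pou5f1, Myc or Mycl, which allows a share of up to 10.0% (3 counts of the total; the exact interval reaches 11.6%). The 3 cells with Mycn and the 1 with Utf1 were among the 21 Plzf lu/lu cells of the cluster, which held only 9 Plzf +/+ cells. The Plzf +/+ shares of Utf1 and Pou5f1 and the Plzf lu/lu share of Pou5f1 thus lay at or below the background share or its limit. Those of Myc and Mycl lay below the limit in both genotypes and that of Mycn in Plzf +/+ within the interval of its Sertoli-like share (2.11 to 26.5), but MYC genes are used by many cell types, so these cells are no clear background for them. The Utf1 share of 13.1% in Plzf lu/lu (9.73 to 17.0) lay within its Sertoli-like interval (0.0844 to 17.2), so it was not above the background of these 30 shallower cells beyond counting error. In the 184 spermatid-like cells the Utf1 share was 3.26% (1.21 to 6.96). Thinned to 2000 UMIs, 0 of 25 Sertoli-like cells held Utf1, with an exact interval that reaches 13.7%, beside 4.80% of Plzf lu/lu cells.

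Depth bore on every share: cells with a Mycn UMI had a median of 8230 UMIs in Plzf +/+ and 10119 in Plzf lu/lu, against 5605 and 5062 for cells without. After thinning to 2000 UMIs, for which 63 cells of Plzf +/+ and 19 of Plzf lu/lu were too shallow, Mycn was detected in 3.26%, 4.35% and 3.19% of Plzf +/+ cells and in 13.2% and 13.8% of Plzf lu/lu cells. Sall4 was then detected in 26.1%, 27.5% and 31.1% against 17.8% and 13.8%, and Utf1 in 0%, 1.09% and 1.20% against 4.28% and 10.3%. In Sertoli-like cells thinned alike, Mycn was in 2 of 25 cells (8.00%, 0.984 to 26.0), an interval that holds the Mycn shares of all 5 libraries. The thinned shares of Mycn, Sall4 and Utf1 in Plzf lu/lu plate 4 rested on 4, 4 and 3 of 29 cells. Their intervals were wide, as with 3.89 to 31.7 for Mycn. The share of all genes without overlap at this depth was not computed. For these 3 genes the libraries of the genotypes still did not overlap at this depth. At 1000 UMIs they did for Mycn and Utf1: the 38 Plzf lu/lu cells of plate 4 then held 0 UMIs of either gene, which allows a share of up to 7.89% (3 counts of the total; the exact interval reaches 9.25%), while those of plate 3 had Mycn in 6.05% and Utf1 in 3.18%, against 1.26% to 1.81% and 0% to 0.660% in Plzf +/+ libraries. Lin28a in thinned cells ranged from 7.17% to 13.1% in Plzf +/+ and was 8.55% and 3.45% in Plzf lu/lu, the last from 1 of 29 cells.

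**Figure D2:**
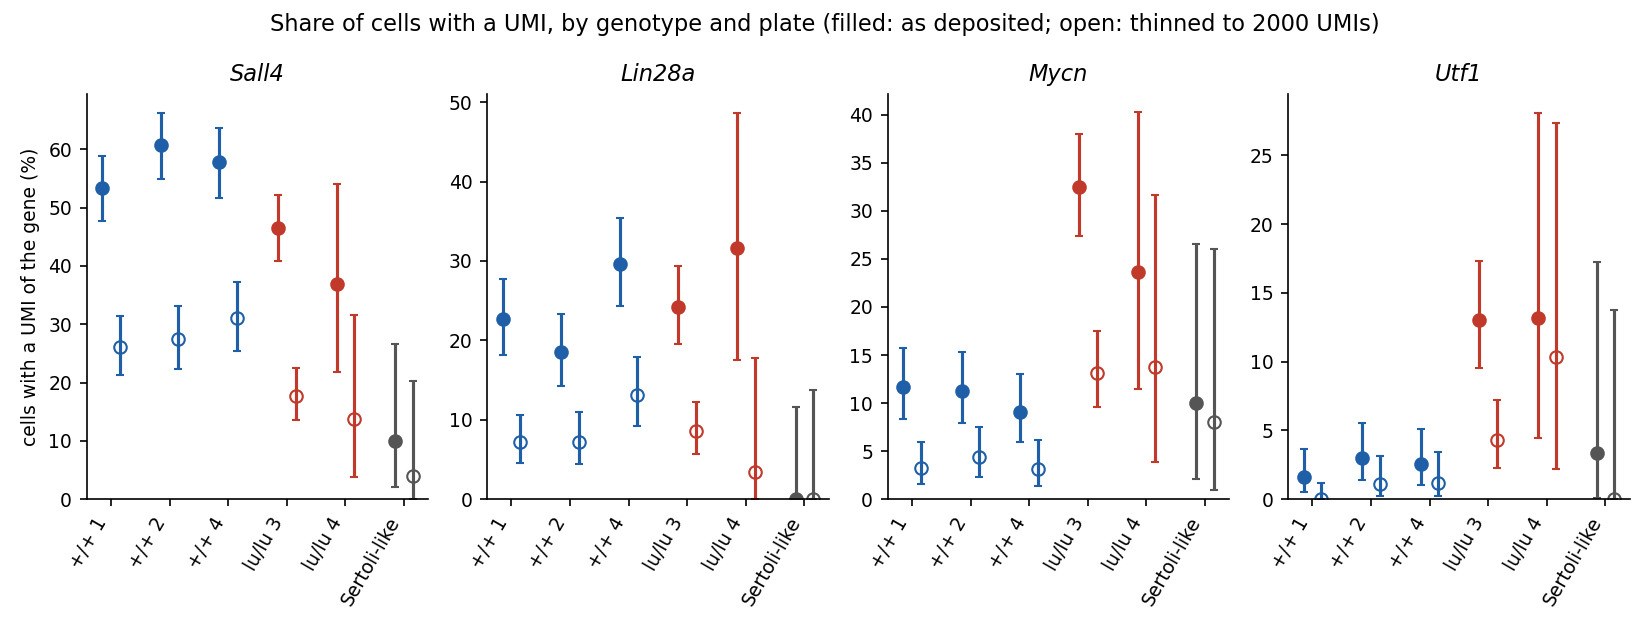
Percentage of cells with at least 1 UMI (vertical axis from 0, differing between panels) in the 5 libraries and in Sertoli-like cells, as deposited (filled) and thinned to 2000 UMIs per cell (open), with 95% exact binomial intervals that cover counting error only. Mycn and Utf1 shares lay higher in Plzf lu/lu and Sall4 shares lower, before and after thinning.

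Members were also counted together. No member was detected in 31.9% of Plzf +/+ and 33.0% of Plzf lu/lu cells, while 3 were detected in 4.24% and 10.5% and 4 in 0.669% and 3.41%. Lin28a and Mycn were found together in 38 Plzf +/+ cells, 18.1% of those with Lin28a and 39.6% of those with Mycn. In Plzf lu/lu they were together in 44 cells, 50.0% of those with Lin28a and 39.6% of those with Mycn. Myc and Mycn shared 2 Plzf +/+ cells and 3 Plzf lu/lu cells. Utf1 and Mycn shared 3 and 18 cells, 14.3% and 39.1% of the cells with Utf1. These overlaps carry the depth of the cells with them, and its part was not tested.

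The cells were then grouped into 7 clusters, computed without the 7 genes. Cluster 1 was undifferentiated-like, with T and Lhx1 among its leading genes, and held 294 Plzf +/+ but only 5 Plzf lu/lu cells. Cluster 2 (106 and 125 cells) was differentiating-like, with Stra8 among its leading genes. Cluster 4 was spermatid-like and cluster 7 Sertoli-like, while clusters 3, 5 and 6 stayed unnamed and were led by non-coding and ribosomal RNA genes, histone genes and predicted Gm genes. Of the 184 cells of cluster 4, 52.2% held Sall4 and 20.1% Lin28a. Thinned to 2000 UMIs these shares were 21.1% and 5.71%, beside 28.1% and 8.99% of Plzf +/+ cells. The name of cluster 4 thus says only that spermatid transcripts led it, and whether its cells are spermatids was not tested. Cluster 6 held 17 Plzf +/+ and 105 Plzf lu/lu cells, 102 of them from plate 3.

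Sall4 in Plzf +/+ was at 226 CPM in cluster 1, 197 in cluster 3, 147 in cluster 2 and 81.1 in cluster 4. Mycn ran in another order, with 44.6 in cluster 2, 27.7 in cluster 3, 10.5 in cluster 4 and 9.77 in cluster 1. Lin28a was at 81.8 in cluster 2, 77.9 in cluster 3, 52.3 in cluster 1 and 23.2 in cluster 4. In Plzf +/+, the undifferentiated-like cluster thus had the highest Sall4 and the lowest Mycn of these 4 clusters, although the counting interval of its Sall4 level overlapped that of cluster 3 and the interval of its Mycn level that of cluster 4.

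Within cluster 2, which held the most Plzf lu/lu cells, Mycn was at 44.6 CPM in Plzf +/+ (30 UMIs, exact Poisson interval 30.1 to 63.7) and at 85.2 in Plzf lu/lu (101 UMIs, 69.4 to 103). Utf1 there was at 8.92 (6 UMIs, 3.27 to 19.4) and 29.5 (35 UMIs, 20.6 to 41.0). Sall4 in cluster 2 was at 147 and 137 and Lin28a at 81.8 and 63.2, with overlapping intervals. The value of Mycn was higher in Plzf lu/lu in each of the 7 clusters, but outside cluster 2 the counting intervals of the genotypes overlapped in every cluster. The Plzf lu/lu values of clusters 1 and 7 rested on 3 UMIs each and the Plzf +/+ values of clusters 6 and 7 on 1 and 0. How many of all genes were higher in every cluster was not counted. Of the 66 Utf1 UMIs in Plzf lu/lu, 35 came from cluster 2 and 24 from cluster 6, where Utf1 stood at 42.8 CPM. All intervals here cover counting error only, and cells of a cluster are not replicates.

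**Figure D3:**
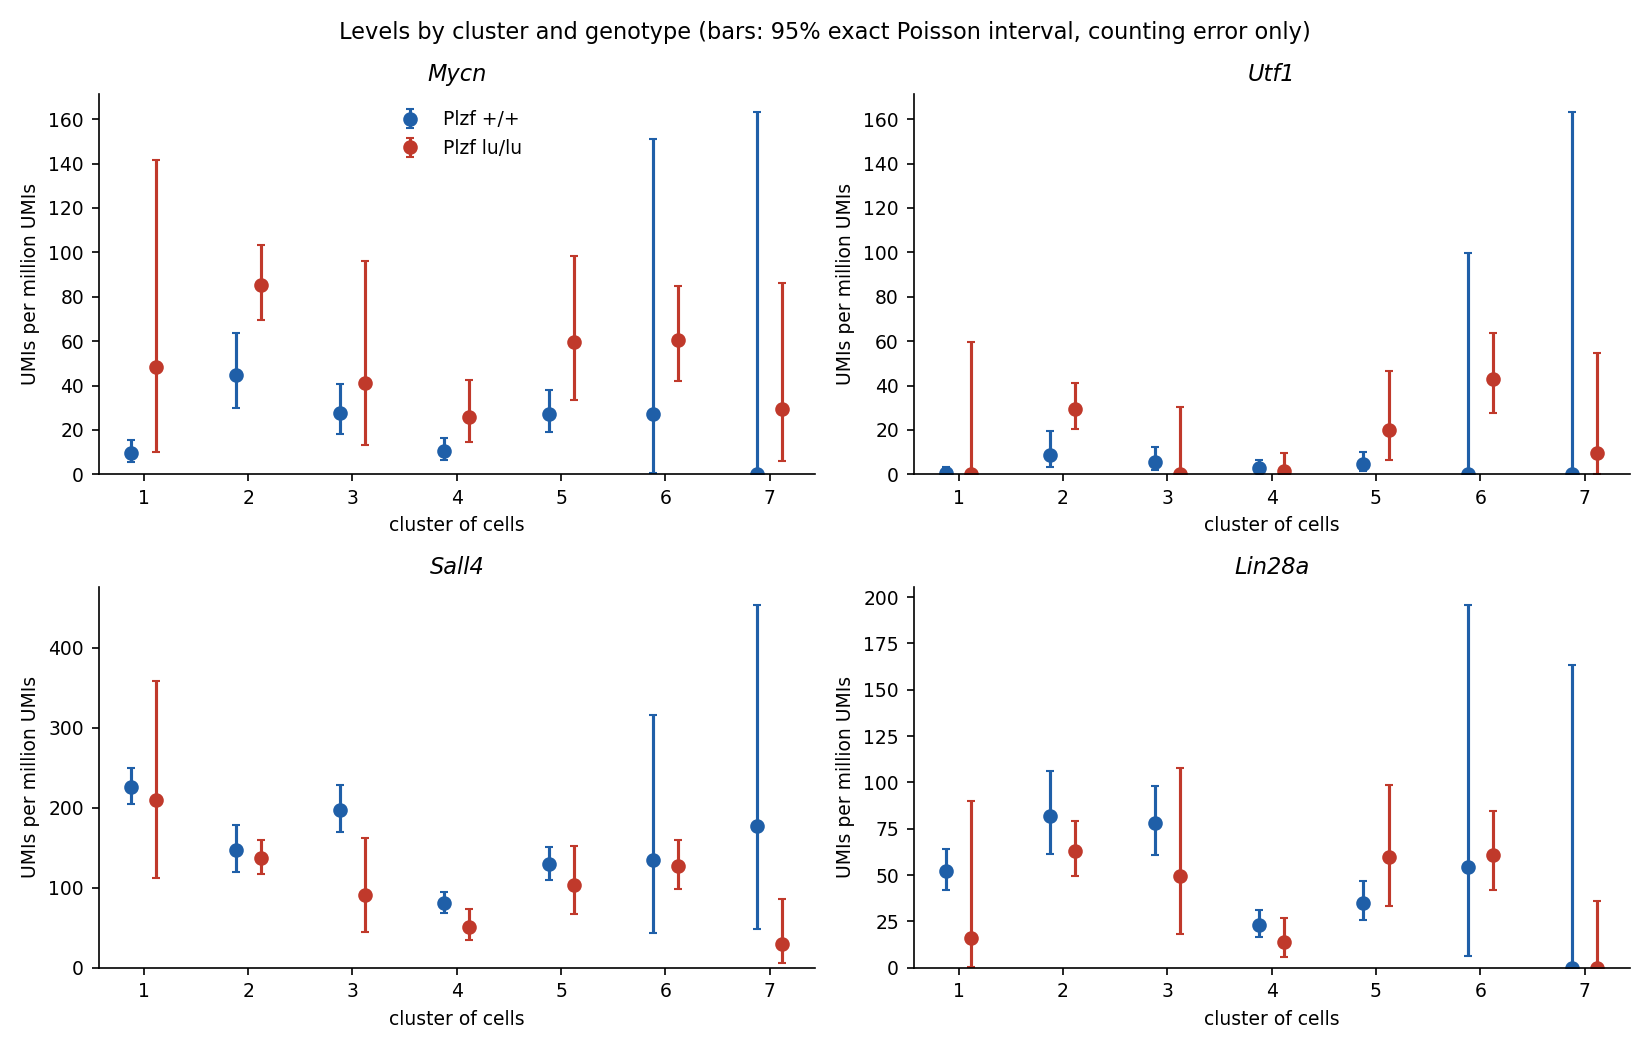
CPM (vertical axis from 0, differing between panels) of Mycn, Utf1, Sall4 and Lin28a in 7 clusters of cells by genotype, with 95% exact Poisson intervals for counting error. In cluster 2 Mycn was at 44.6 in Plzf +/+ and 85.2 in Plzf lu/lu, while Sall4 was at 147 and 137.

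To ask how the 7 genes vary with the state of a cell, cells of each library were divided by whether they held a UMI of a marker, and summed counts were compared within libraries by edgeR. Gfra1, the GDNF receptor of undifferentiated spermatogonia, had a UMI in 63.1% of Plzf +/+ and 38.1% of Plzf lu/lu cells. Cells with Gfra1 were deeper, at a median of 6559.5 against 4596 UMIs in Plzf +/+ and 9417.5 against 4545 in Plzf lu/lu. Between the classes 20 of 10603 genes were called (0.189%, with 15 higher and 5 lower in cells with Gfra1), and none of the 3 members tested. Sall4 was higher with Gfra1 in 4 of 5 libraries, by 0.32 ± 0.12 on the log2 scale (SE, adjusted p = 0.453). That value was 0.36 ± 0.11 (adjusted p = 0.0279) without the Sertoli-like and spermatid-like cells, a setting in which 615 genes were called. Lin28a differed by -0.18 ± 0.22 (adjusted p = 0.898) and Mycn by -0.50 ± 0.39 (adjusted p = 0.80).

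Behind the Mycn value the genotypes ran in opposite ways. In Plzf +/+ libraries, cells with Gfra1 had 16.9, 17.0 and 9.54 normalised CPM and cells without had 35.7, 35.4 and 33.3. In Plzf lu/lu libraries, cells with Gfra1 had 75.7 and 64.2 and cells without had 53.4 and 24.8, where the plate 4 values rested on 8 and 3 UMIs, the last at the floor. Mycn was thus lower with Gfra1 in 3 of 3 Plzf +/+ libraries and higher in 2 of 2 Plzf lu/lu libraries. The scarce Myc also ran in opposite ways, and how many of all genes did so was not counted. Among cells with Gfra1 the Mycn levels of the genotypes did not overlap. Among cells without it they overlapped only through the plate 4 value of 24.8, as 53.4 on plate 3 lay above all Plzf +/+ values. The share of all genes without overlap in either class was not computed. The difference between genotypes was 1.92 ± 0.48 on the log2 scale (adjusted p = 0.345, edgeR interaction term), and in this test 0% of 10603 genes passed, with 781 at an unadjusted p under 0.05 and 0 passing with DESeq2.

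Cells with a UMI of Kit or Stra8, genes of differentiating spermatogonia, made up 24.5% of Plzf +/+ and 30.4% of Plzf lu/lu cells. Of 10267 genes 130 were called (1.27%, 45 higher and 85 lower), and none of the 3 tested members was. Sall4 differed by 0.24 ± 0.13 (adjusted p = 0.460), Mycn by 0.22 ± 0.27 (adjusted p = 0.785) and Lin28a by -0.020 ± 0.19 (adjusted p = 0.994). Utf1, below the filter here, had 11 of 23 UMIs of Plzf +/+ and 41 of 66 of Plzf lu/lu in such cells, which held 2141297 of 6506907 and 1045124 of 2863216 UMIs of all genes.

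Cells with a UMI of Mki67 or Top2a, genes of dividing cells, made up 52.7% of Plzf +/+ and 56.3% of Plzf lu/lu cells. This split called 689 of 9695 genes (7.11%, 567 higher and 122 lower), again with none of the 3 tested members. Lin28a differed by -0.35 ± 0.20 (adjusted p = 0.335) and Mycn by 0.23 ± 0.30 (adjusted p = 0.720). Sall4 differed by -0.32 ± 0.19 (adjusted p = 0.365), again with opposite directions by genotype. In Plzf +/+ libraries Sall4 was at 145, 132 and 138 normalised CPM in cells with Mki67 or Top2a, below the 184, 218 and 231 in cells without. In Plzf lu/lu libraries it was at 127 and 93.9 with and at 97.6 and 54.2 without, the last from 4 UMIs. The difference between genotypes was 1.04 ± 0.28 (adjusted p = 0.397), in a test that 2 of 9695 genes passed (0.0206%). It passed at an adjusted p of 0.0488 without the Plzf +/+ library of plate 1. Of the 23 Utf1 UMIs in Plzf +/+, 21 lay in cells with Mki67 or Top2a, which held 4380640 of the 6506907 UMIs of that genotype. In Plzf lu/lu 46 of 66 did, in cells that held 1990156 of 2863216 UMIs, and the summed Utf1 level there was 23.1 CPM with and 22.9 without.

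The last split was by Lin28a itself, whose counts per cell were known, so it is described without a test of the members. Of 9681 genes 307 were called (3.17%, 47 higher and 260 lower in cells with Lin28a). Mycn was at 33.9, 39.5 and 27.3 normalised CPM in Plzf +/+ cells with Lin28a and at 17.9, 15.5 and 12.9 in those without. In Plzf lu/lu it was at 87.4 and 59.9 with and 54.9 and 33.3 without. Mycn was therefore higher with Lin28a in 5 of 5 libraries, by 0.92 ± 0.21 on the log2 scale. The share of all genes higher in 5 of 5 libraries was not computed. After thinning the Mycn value was 1.25 ± 0.47, where cells with Lin28a numbered from 1 (Plzf lu/lu plate 4) to 33 (Plzf +/+ plate 4) per library. Sall4 differed by 0.28 ± 0.11, higher in 4 of 5 libraries, a value that fell to 0.066 ± 0.27 after thinning and to 0.13 ± 0.11 without Sertoli-like and spermatid-like cells. Of the 14 Mycl UMIs in Plzf +/+, 10 lay in cells with Lin28a, and of the 8 in Plzf lu/lu, 5 did, in cells that held 1824749 of 6506907 and 958429 of 2863216 UMIs of all genes. The interaction test for Kit or Stra8, which 2 of 10267 genes passed (0.0195%), called none of its 3 tested members with edgeR.

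**Figure D4:**
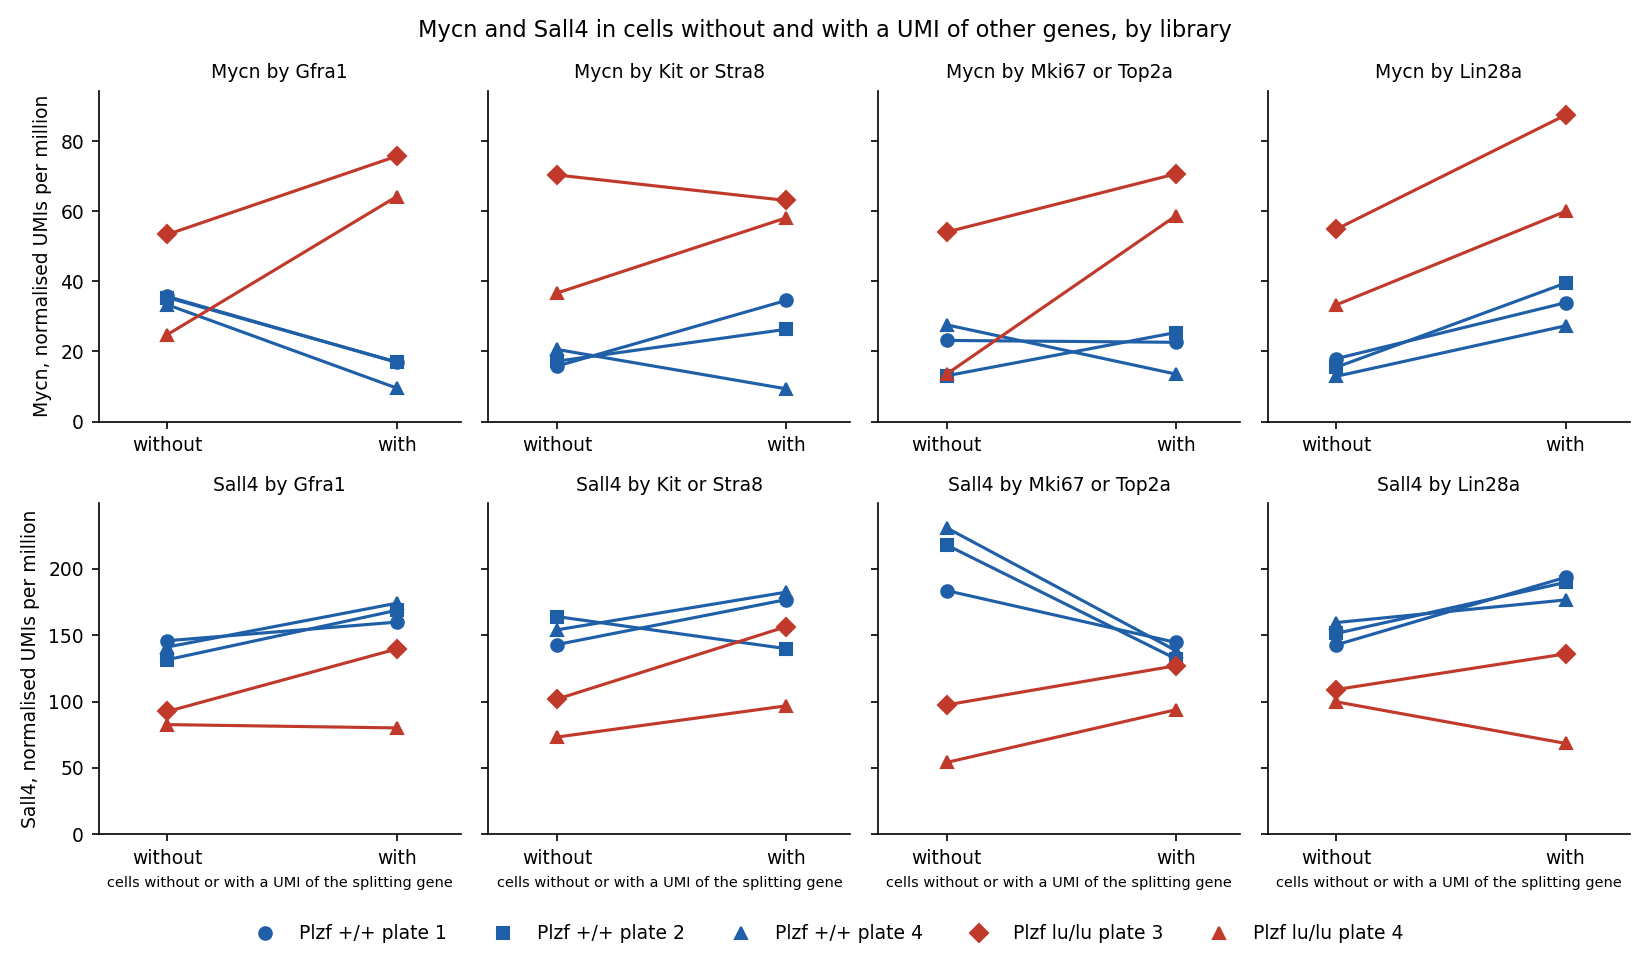
Normalised CPM of Mycn (upper row) and Sall4 (lower row) in cells without and with a UMI of Gfra1, Kit or Stra8, Mki67 or Top2a, and Lin28a; each line is a library and axes start at 0. Mycn by Gfra1 and Sall4 by Mki67 or Top2a run in opposite directions in the genotypes, where neither interaction passed the threshold in the main fit. Mycn was higher with Lin28a in all 5 libraries.

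The partners and targets of these proteins were examined as lists. Of 16 tested genes of the MYC network (MAX, its other partners and regulators of MYC), 0 were called between genotypes by edgeR beside the 0.816% over all genes, with 2 at an unadjusted p under 0.05 (14.2% of all genes tested were) and 0 called by DESeq2, and the median log2 fold change was 0.044 against 0.0035 over all genes. The 2 with most UMIs were Huwe1, a ubiquitin ligase that acts on MYC proteins (-0.72 ± 0.20, adjusted p = 0.161), and Mga, a MAX partner (-0.19 ± 0.20, adjusted p = 0.767). Of 24 MYC targets none was called by edgeR or DESeq2, with 5 at an unadjusted p under 0.05, a median of 0.24 and 20 of 24 values above 0, beside 50.3% of all genes. Among these were the nucleolar genes Npm1 (0.22 ± 0.12, adjusted p = 0.469) and Ncl (0.19 ± 0.19, adjusted p = 0.771).

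In the LIN28 and let-7 list (processing enzymes, terminal uridylyltransferases and let-7 targets), 1 of 20 was called by edgeR and by DESeq2, with 5 at an unadjusted p under 0.05. Over the 4 lists this was 1 of 74 genes (1.35%), beside 0.816% of all genes. Ccnd1, encoding cyclin D1, fell by 1.29 ± 0.21 on the log2 scale in Plzf lu/lu (adjusted p = 0.0423). The list median was -0.055. Of 27 pluripotency-linked genes measured, 14 were tested and none called by edgeR or DESeq2, with 4 at an unadjusted p under 0.05 and a median of 0.14. The 2 with most UMIs were Epcam, an epithelial adhesion protein (0.044 ± 0.18, adjusted p = 0.984), and Dppa4, a chromatin-associated protein (0.71 ± 0.18, adjusted p = 0.140). Of the 27, 7 had fewer than 10 UMIs in all.

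Of 23 undifferentiated spermatogonial markers 2 were higher and 3 lower, with a median of -0.41. T, or brachyury, fell by 4.43 ± 0.60 (adjusted p = 0.0220), the transcription factor gene Lhx1 fell by 2.30 ± 0.28 (adjusted p = 0.0186) and Zbtb16 fell as above. Egr4, a zinc-finger factor gene, rose by 1.78 ± 0.22 (adjusted p = 0.0185), and Sox3 was the other gene called. None of 9 differentiating, 14 spermatocyte or 14 spermatid markers was called by edgeR or DESeq2, with 2, 2 and 0 at an unadjusted p under 0.05, and Stra8 differed by 0.81 ± 0.26 (adjusted p = 0.215). Among 13 Sertoli markers, Clu rose by 2.65 ± 0.22 (adjusted p = 0.0103) and Amhr2 by 2.64 ± 0.27 (adjusted p = 0.0109).

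**Figure D5:**
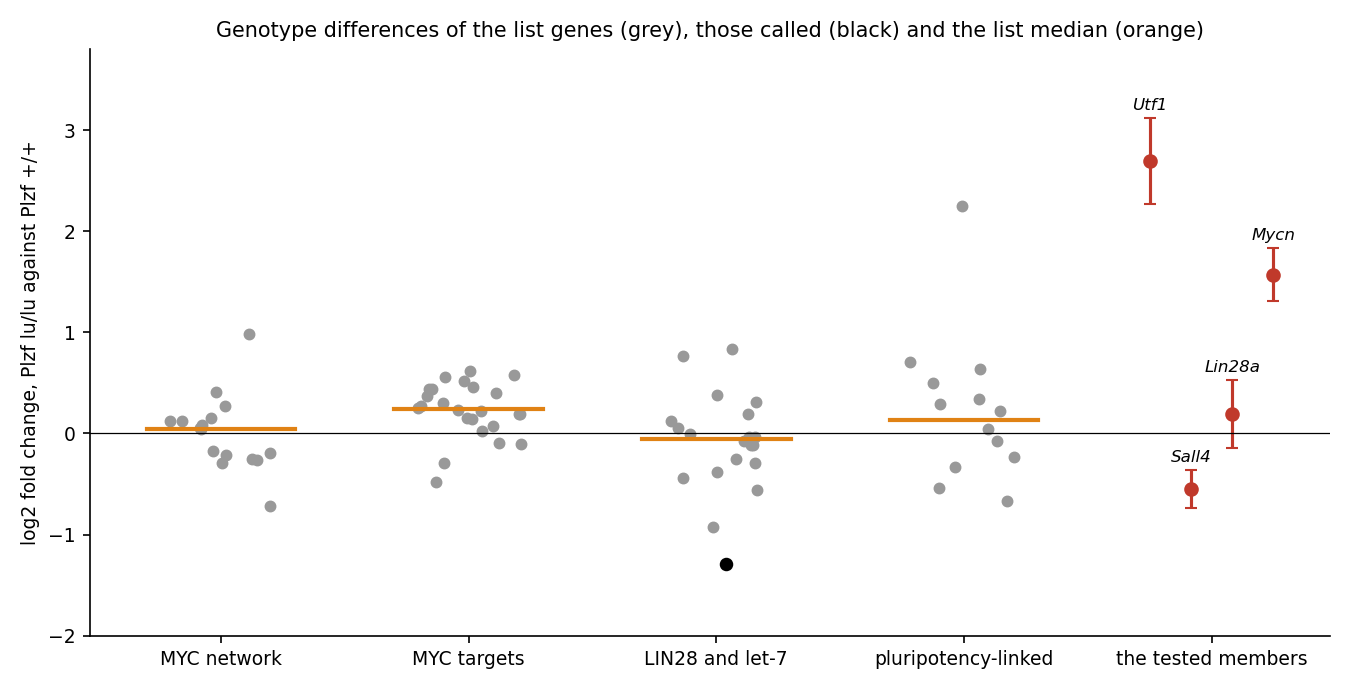
Log2 fold change of Plzf lu/lu against Plzf +/+ (vertical axis) for the tested genes of 4 lists (each point a gene, grey where not called and black where called, orange line the list median) and for the 4 tested members with SE. Ccnd1 at -1.29 was the called gene, and list medians lay between -0.055 and 0.24.

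Of the tested genes of these 4 lists, 7 of 64 (10.9%) were called with Mki67 or Top2a, 2 of 66 (3.03%) with Kit or Stra8, 0 of 67 with Gfra1 and 2 of 64 (3.12%) with Lin28a, beside 7.11%, 1.27%, 0.189% and 3.17% of all genes. With Mki67 or Top2a, Cdc25a, a cell-cycle phosphatase gene and let-7 target, was higher by 0.94 ± 0.17 (adjusted p = 0.00873), and the MYC targets Tfrc and Ncl were higher by 0.68 ± 0.14 (adjusted p = 0.0146) and 0.31 ± 0.065 (adjusted p = 0.0153). Klf4 (1.07 ± 0.19, adjusted p = 0.00644) and Epcam (0.64 ± 0.13, adjusted p = 0.0156) were higher, while Dppa4 (-0.61 ± 0.15, adjusted p = 0.0264) and Trrap, a MYC cofactor gene (-0.49 ± 0.12, adjusted p = 0.0345), were lower. With Kit or Stra8, the MYC target Ccnd2 (-0.47 ± 0.10, adjusted p = 0.0374) and Nr5a2 (-1.18 ± 0.21, adjusted p = 0.0111) were lower by edgeR. In this split DESeq2 called 0 MYC targets, so not Ccnd2, and 1 pluripotency-linked gene. With Gfra1 no gene of these 4 lists was called by edgeR, with 0 of the MYC network, 2 MYC targets, 4 LIN28 and let-7 genes and 3 pluripotency-linked genes at an unadjusted p under 0.05 (9.15% of all genes), and DESeq2 called 1 MYC target. With Lin28a, Ncl was higher (0.29 ± 0.065, adjusted p = 0.0173) and the glycolytic gene Ldha lower (-1.09 ± 0.14, adjusted p = 0.000746). Of the differentiating list, Sohlh1, a germ cell transcription factor gene, was higher (0.75 ± 0.11, adjusted p = 0.00146) and Ly6k lower (-0.95 ± 0.23, adjusted p = 0.0240). The Ldha value moved to 0.035 ± 0.20 without Sertoli-like and spermatid-like cells.

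Likeness of other genes to each member was measured as Pearson correlation of ln(UMIs per 10000 plus 1) over 1167 cells with at least 2000 UMIs and 11487 genes, as a description, since the cells share libraries and differ in depth. For Sall4 the 5 highest were Mdn1 (r = 0.253), Ankrd17 (0.218), Ankrd12 (0.215), Gfra1 (0.213) and Atrx (0.212). For Utf1 they were Nrk (0.271) and Ptrf (0.246), and for Mycn Phgdh, encoding an enzyme of serine synthesis (0.223). Over all these cells no gene reached 0.2 with Lin28a, Myc, Mycl or Pou5f1, whose highest values of 0.179 (Rbbp6), 0.161 (Kdr), 0.184 (Gm6071) and 0.162 (Mapk1ip1) were weak. In the 834 Plzf +/+ cells alone, Ankrd17 (0.211) and Atrx (0.206) were above 0.2 with Sall4, Sohlh1 (0.252) was the gene most like Mycn, and no gene reached 0.2 with Utf1 or Lin28a. The highest there were weak for Mycl (Rps12l2, 0.254) and Pou5f1 (Gm10268, 0.207), which rested on 14 and 7 UMIs, and for Myc none reached 0.2.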

How the data were processed

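Single tdTOMATO-positive testis cells were sorted into 384-well plates and their RNA was tagged at the 3′ end with cell barcodes and UMIs. The deposited files hold raw UMI counts per gene and cell, which the authors made as 1 merged table per genotype; the submitters' processing notes name bcl2fastq 2.18.0.12, Picard 2.9.3, STAR 2.5.4a and build GRCm38. The gene annotation used for counting was not given in the sources used here. A cell's genotype was taken from the table that holds it and its plate from the suffix of its column name.

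Cells are not replicates, so counts were summed per genotype and plate (5 libraries), and for splits per library and class of cells. Sums were tested with edgeR 4.0.16 in R 4.3.3 (filterByExpr, TMM, robust quasi-likelihood fit, Benjamini-Hochberg threshold 0.05 over all genes kept), with library as a block in the splits. SE is the absolute log2 fold change divided by the square root of F. All cells were used and no doublet caller was run. Clusters came from scanpy 1.11.5 and leidenalg 0.10.2 (2000 variable genes, 20 components, resolution 0.5). Scripts were tested on simulated data. Promoter sequences are RefSeq GRCm38.p6.

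The members and gene lists were chosen with earlier results of these data known. Named genes are the 7 members, up to 4 called genes per list with the smallest adjusted p or, where none was called, the 2 with most UMIs, and up to 5 genes with r of at least 0.2 to a member. Sox3 was named outside this rule, after its value was seen. Alternatives were DESeq2 1.42.0, RLE factors, no filter on low counts, omission of Sertoli-like and spermatid-like cells, thinning to 2000 UMIs and omission of each library. The interaction tests other than that for Gfra1, and the alternatives applied to interactions, were chosen after seeing the data. Intervals cover counting error only.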

Additional observations from a re-analysis of the deposited data

Results flagged for a closer look

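The difference in Mycn between cells with and without Gfra1 ran in opposite directions in the genotypes: lower with Gfra1 in 3 of 3 Plzf +/+ libraries and higher in 2 of 2 Plzf lu/lu libraries, where the plate 4 values rested on 8 UMIs with and 3 UMIs without Gfra1. The difference between genotypes was 1.92 ± 0.48 on the log2 scale (unadjusted p = 0.00161, adjusted p = 0.345, edgeR interaction term) and did not pass the threshold. Myc, on few UMIs, also ran in opposite directions by Gfra1, higher in 3 of 3 Plzf +/+ and 0 of 2 Plzf lu/lu libraries. The share of all genes with opposite directions was not computed. Cells with Gfra1 were 37.9% and 39.5% of the Plzf lu/lu libraries and between 58.1% and 66.0% of the Plzf +/+ libraries, and the part of this change in makeup was not tested.

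The difference in Sall4 between cells with and without Mki67 or Top2a also ran in opposite directions, lower with these genes in 3 of 3 Plzf +/+ libraries and higher in 2 of 2 Plzf lu/lu libraries. The difference between genotypes was 1.04 ± 0.28 (unadjusted p = 0.00291, adjusted p = 0.397) and did not pass. The scarce Mycl ran in the same directions as Sall4 in this split. The plate 4 Plzf lu/lu value without Mki67 or Top2a rested on 4 UMIs in 16 cells.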

How the results depend on the processing

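Between genotypes 112 genes were called, against 583 with no filter, 1783 without the 214 cells of Sertoli-like and spermatid-like clusters, 406 after thinning to 2000 UMIs and 1 to 1387 over the omissions of a library, each of which moved the count by over 1.5 times. For Gfra1 the count of 20 went to 55 with DESeq2, 264 with no filter, 615 without other cell types, 221 after thinning and 3 to 128 without a library. For Kit or Stra8 the count of 130 went to 76 with DESeq2, 420 with no filter, 545 without other cell types and 22 to 117 without a library. For Mki67 or Top2a the count of 689 went to 1671 with no filter, 233 after thinning and 94 to 900 without a library. For Lin28a the count of 307 went to 165 with DESeq2, 750 with no filter, 98 without other cell types, 51 after thinning and 22 to 466 without a library. The omissions that moved a count by over 1.5 times were, for Gfra1, Plzf +/+ plate 1 (3 genes) and plate 2 (128) and Plzf lu/lu plate 3 (4) and plate 4 (33); for Kit or Stra8, Plzf +/+ plates 1 (33), 2 (60) and 4 (22); for Mki67 or Top2a, Plzf +/+ plates 2 (94) and 4 (397) and Plzf lu/lu plate 3 (373); and for Lin28a, Plzf +/+ plates 1 (89) and 4 (58) and Plzf lu/lu plates 3 (22) and 4 (466). The cause of these shifts was not tested.

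Over 10 alternatives the genotype log2 fold change stayed between 2.48 and 2.96 for Utf1, 1.16 and 1.94 for Mycn and -0.95 and -0.38 for Sall4, and ran from -0.23 to 0.49 for Lin28a. The Mycn difference by Lin28a stayed between 0.74 and 1.25 and that of Sall4 between 0.066 and 0.34. By Gfra1, Mycn ran from -1.02 to -0.24, Lin28a from -0.32 to 0.065 and Sall4 from 0.18 to 0.55. By Kit or Stra8, Sall4 (-0.10 to 0.40), Mycn (-0.021 to 0.49) and Lin28a (-0.14 to 0.13) changed sign. By Mki67 or Top2a none did. Of the called list genes, Ldha (0.035) and Piwil1 (0.031) reversed in the Lin28a split without other cell types, and Dmrtb1 (-0.24) reversed in the Mki67 or Top2a split after thinning. The interaction of Mycn with Gfra1 passed with no filter (1.95, adjusted p = 0.0312) and ran from 1.78 to 2.69 without a library. That of Sall4 with Mki67 or Top2a ran from 0.98 to 1.36 without a library and passed in the omission of Plzf +/+ plate 1 (1.22).

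Shares of cells fell with depth in both genotypes. At 2000 UMIs, 1000 UMIs and with at least 2 UMIs asked of a cell, Plzf +/+ shares were 0.719%, 0.446% and 0.223% for Utf1, 28.1%, 15.2% and 29.3% for Sall4, 8.99%, 4.58% and 7.58% for Lin28a and 3.60%, 1.56% and 2.56% for Mycn. Plzf lu/lu shares were 4.80%, 2.84% and 2.27% for Utf1, 17.4%, 9.66% and 20.5% for Sall4, 8.11%, 7.39% and 10.2% for Lin28a and 13.2%, 5.40% and 11.4% for Mycn. Of these 4 genes, Lin28a was the one whose order between genotypes depended on the setting.

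No paired analysis was possible because 1 of 4 plates holds both genotypes: with plate as a term the 5 libraries leave 0 residual degrees of freedom, and limma's duplicateCorrelation gave an estimate for 0 of 13728 genes (both tried after seeing the data). The genotype fit therefore treats the 2 libraries of plate 4 as independent, and the ratios within plate 4 stand in the report. In the thinned splits by Gfra1, Kit or Stra8 and Mki67 or Top2a, Mycn and Lin28a fell below the filter and gave no value. Myc, Mycl and Pou5f1 gave values with no filter alone.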

Other observations

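Among the pluripotency-linked genes, 2 factors were too scarce for any comparison: Nanog had 1 UMI and Sox2 8 UMIs over all 1249 cells. These 2 genes were chosen after their values were seen.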
